A study of Arabidopsis thaliana with 24 samples.

Results

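Class III peroxidases are secreted plant enzymes encoded by a large gene family, and 60 loci of the family were followed in Arabidopsis roots. They were found by locus in a table of 40246 features, of which 26800 had reads. Of the 60, 50 had a mean normalized count of at least 5 over the 24 libraries and were tested among 18948 genes. Roots came from Col-0 seedlings that were 3 days old when they were moved to 0.8 nM brassinolide (BL, a brassinosteroid hormone), 4 µM L-kynurenine (Kyn, an inhibitor of auxin synthesis), both compounds (BL+Kyn) or mock medium. They were harvested 12, 24 or 48 h later, and the root piece used was cut a short way behind the tip. There were 12 groups with 2 libraries each, called biological replicates in the series, so a treatment has 6 libraries over the 3 times. No plant carried a transgene or mutation according to the labels. CEL-Seq2, which reads the 3′ ends of transcripts, was used on total RNA, and libraries held 6322167 to 31365110 reads counted on genes.

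These enzymes work in the cell wall and use hydrogen peroxide in opposite ways. They can couple lignin precursors and wall proteins, which stiffens a wall, and they can also generate reactive oxygen that loosens it or takes part in defence. In roots, particular members are known for the growth of root hairs, for the lignin of the Casparian strip in the endodermis, for xylem lignin and for responses to wounding and pathogens. With earlier results of these data known, the members were sorted by such knowledge into a root hair list (6 loci), a stress list (11), a Casparian strip and lignin list (9) and the 34 other loci. The means just inside and just outside the limit of 5 were 6.23 for PRX43 and 4.89 for PRX2.

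The root hair element is a promoter sequence that RSL4, a root hair transcription factor, is known to bind in root hair genes. It was searched on both strands in the 500 bases before each annotated gene start (RefSeq, TAIR10.1) and was present in 396 of 27431 protein-coding genes (1.44%). Of the 60 peroxidases, 3 held it: PRX60 and PRX73 of the root hair list, at 92 and 420 bases before the start, and PRX27, an other member, at 246 bases. These 3 stretches are shown because their genes moved in different directions below. They are given 5′ to 3′ on the strand of the gene, with the element in capitals. PRX60 (chr5:7426196-7426255) and PRX73 (chr5:26894336-26894396) are on the plus strand, and PRX27 (chr3:68873-68933) is on the minus strand. In PRX27 the element itself reads on the opposite strand, so its capitals show the reverse complement of the element.
PRX60: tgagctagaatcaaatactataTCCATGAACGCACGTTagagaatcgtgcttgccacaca
PRX73: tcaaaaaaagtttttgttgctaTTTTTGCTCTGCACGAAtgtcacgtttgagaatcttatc
PRX27: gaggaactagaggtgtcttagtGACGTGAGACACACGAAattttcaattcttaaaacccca

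A match of letters is a description and was not tested as a binding site. In PRX60 and PRX27 the element overlaps a match to the brassinosteroid response element (CGTGTG or CGTGCG), and in PRX27 also one to the auxin response element. The brassinosteroid response element was found before 12 of 60 peroxidases, against 11.5% of all genes, and the auxin response element before 6 of 60, against 27.4%. The W-box (TTGACC or TTGACT), known as a site of defence-related WRKY factors, stood before 5 of 11 stress-list loci (45.5%) and 45.2% of all genes.

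With both compounds, most of the family changed, and the members of its root hair and stress lists moved in opposite directions. Every tested member of the root hair list (5 of 5) was lower in BL+Kyn than in mock. Every tested member of the stress list (9 of 9) was higher. These counts are descriptive, because the lists were drawn up with earlier results of these data known. PRX62, described below as also known for root hair growth in the cold, was counted on the stress list. Among the stress members, PRX53 passed the limit of 5 through its treated libraries. Over the 50 tested peroxidases, limma called 32 higher and 9 lower at an adjusted p under 0.05. Among all tested genes 36.3% were called, 18.7% higher and 17.6% lower. The tested peroxidases had higher counts, with a median mean count of 729 against 124 for all tested genes. Of the 50, 36 lay above the median of all tested genes. The part of this difference in the share called was not tested. The median log2 change was 0.59 over the family, against 0.00 over all genes. A change in the text is a fitted log2 difference of normalized counts with 1 added, averaged over the 3 times, with its standard error (SE) and a Benjamini-Hochberg adjusted p over all genes.

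Kyn alone moved 19 peroxidases (13 higher, 6 lower), in a comparison that called 4.9% of all genes, 1.78% higher and 3.12% lower. BL alone moved 5, all higher, where 1.88% of all genes were called, 0.929% higher and 0.955% lower. The median change over the 5 root hair members was 0.19 in BL, -2.01 in Kyn and -3.19 in BL+Kyn, and over the 9 stress members 0.85, 0.68 and 2.31, while the median over all genes was 0.00, 0.01 and 0.00. The 3 comparisons share their mock libraries. The 6 BL+Kyn libraries all lay above the 6 mock libraries for 19 of the 50 members (5.93% of all tested genes) and all below them for 7 (5.95% of all), and the ranges overlapped for 24. The heat map of the family shows these patterns library by library.

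**Figure D1:**
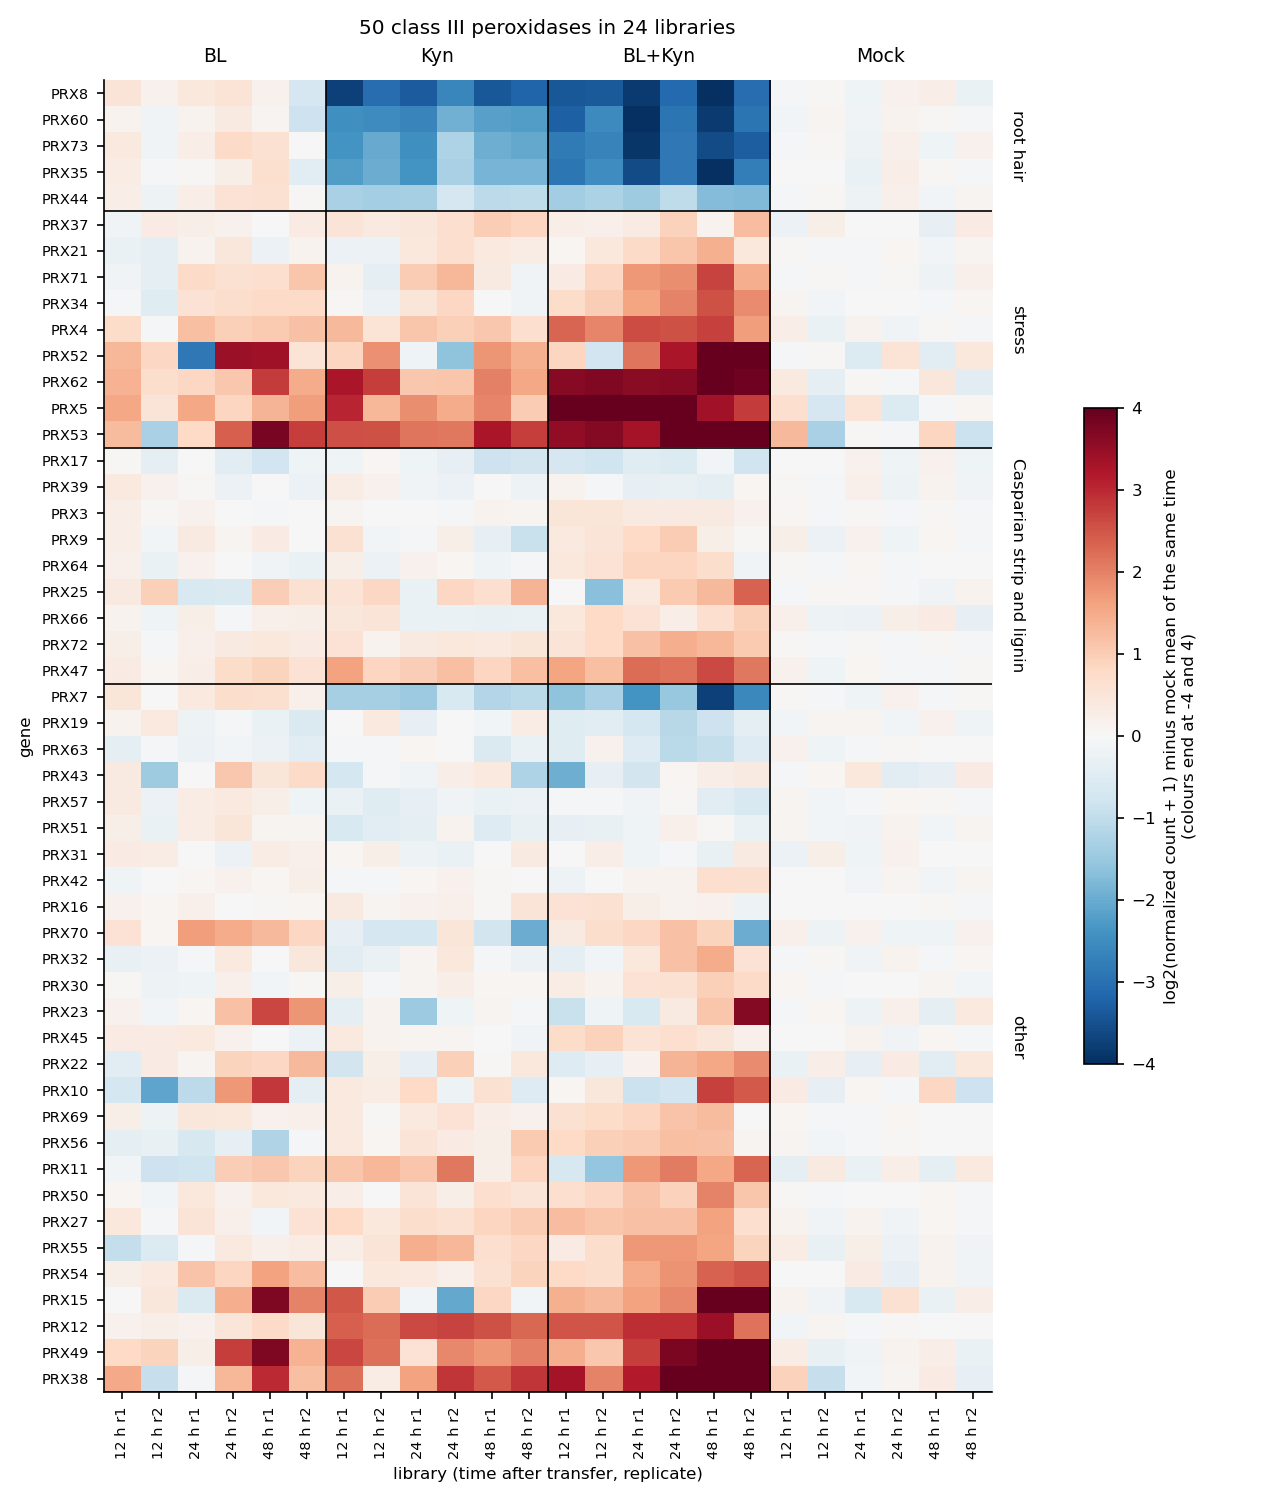
Each row is 1 of the 50 tested peroxidases and each column 1 of the 24 libraries (BL, Kyn, BL+Kyn, mock; r1 and r2 are the 2 replicates); the colour is log2(normalized count + 1) minus the mock mean of the same time, and colours end at -4 and 4. The root hair rows and PRX7 are blue in all 12 Kyn and BL+Kyn libraries, and the stress rows are red mainly in BL+Kyn.

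Of the libraries, 2 stand apart. The summed normalized count of 13 green tissue genes was 91953 in BL 12 h replicate 2 and 100935 in Kyn 12 h replicate 2, against 1693 to 7803 in the other 22 libraries, with none of the 13 genes at 0 in the series. Without both libraries, 5 peroxidases were called in BL, 18 in Kyn and 42 in BL+Kyn against mock.

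The root hair members were lowered by Kyn, and 3 of the 5 further by BL+Kyn, while no change was called in BL. PRX73 (AT5G67400, chr5:26894856-26896488), needed together with close relatives for normal hair length, had 1312, 1920 and 3034 normalized counts in Kyn libraries and 481, 858 and 1624 in BL+Kyn (lowest, median and highest of 6), against 6233, 8211 and 10742 in mock. Neither treatment overlapped mock (gene positions are the files' own, on TAIR10). Its log2 change was -2.01 in Kyn (SE 0.19, limma adjusted p = 1.44e-06) and -3.19 in BL+Kyn (SE 0.19, adjusted p = 8.92e-10). In BL it had 7344, 10192 and 13403, which overlapped mock (log2 0.31, adjusted p = 0.587).

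PRX35 (AT3G49960, chr3:18524084-18525687) had 485, 649 and 1031 in Kyn and 138, 341 and 440 in BL+Kyn, against 2101, 2477 and 3037 in mock. Both treated groups lay wholly below mock, at log2 -1.94 (SE 0.23, adjusted p = 1.36e-05) in Kyn and -3.12 (SE 0.23, adjusted p = 7.47e-09) in BL+Kyn. PRX60 (AT5G22410, chr5:7426314-7427964), one of the members with the root hair element shown above, had 258, 384 and 423 in Kyn and 92.1, 217 and 369 in BL+Kyn, against 1466, 1814 and 2322 in mock. It too showed no overlap, with log2 changes of -2.33 in Kyn (SE 0.21, adjusted p = 5.5e-07) and -3.27 in BL+Kyn (SE 0.21, adjusted p = 1.42e-09). In BL, PRX35 had 1832, 2788 and 3822 and PRX60 993, 1936 and 2402, both overlapping mock (log2 0.12 and -0.04).

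PRX8 (AT1G34510, chr1:12615733-12617032) had the most negative fitted Kyn change of the 50 tested members. It had 112, 134 and 194 in Kyn and 78.1, 141 and 161 in BL+Kyn, against 1011, 1398 and 1675 in mock. These libraries did not overlap mock but overlapped each other, and the change was -3.22 in Kyn (SE 0.19, adjusted p = 5.16e-09) and -3.45 in BL+Kyn (SE 0.19, adjusted p = 3.7e-10). PRX44 (AT4G26010, chr4:13200593-13201941), another peroxidase of hair growth, moved less: 1571, 1993 and 2522 in Kyn and 1118, 1727 and 2232 in BL+Kyn, against 3465, 4334 and 5570 in mock. It fell by 1.13 in Kyn (SE 0.12, adjusted p = 6.62e-06) and by 1.43 in BL+Kyn (SE 0.12, adjusted p = 8.28e-08) on the log2 scale. BL libraries overlapped mock for PRX8 (839, 1580 and 2304; log2 0.19) and for PRX44 (3951, 5377 and 6480; log2 0.27).

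PRX7 (AT1G30870, chr1:10991485-10993023), which was placed among the other members, had the same signs. It had 810, 1082 and 1449 in Kyn and 165, 597 and 1123 in BL+Kyn, against 1946, 2392 and 2861 in mock. Again the groups did not overlap mock, and the log2 change was -1.16 in Kyn (SE 0.19, adjusted p = 0.000505) and -2.19 in BL+Kyn (SE 0.19, adjusted p = 7.21e-08). Its BL libraries, at 2535, 3194 and 3877, overlapped mock.

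**Figure D2:**
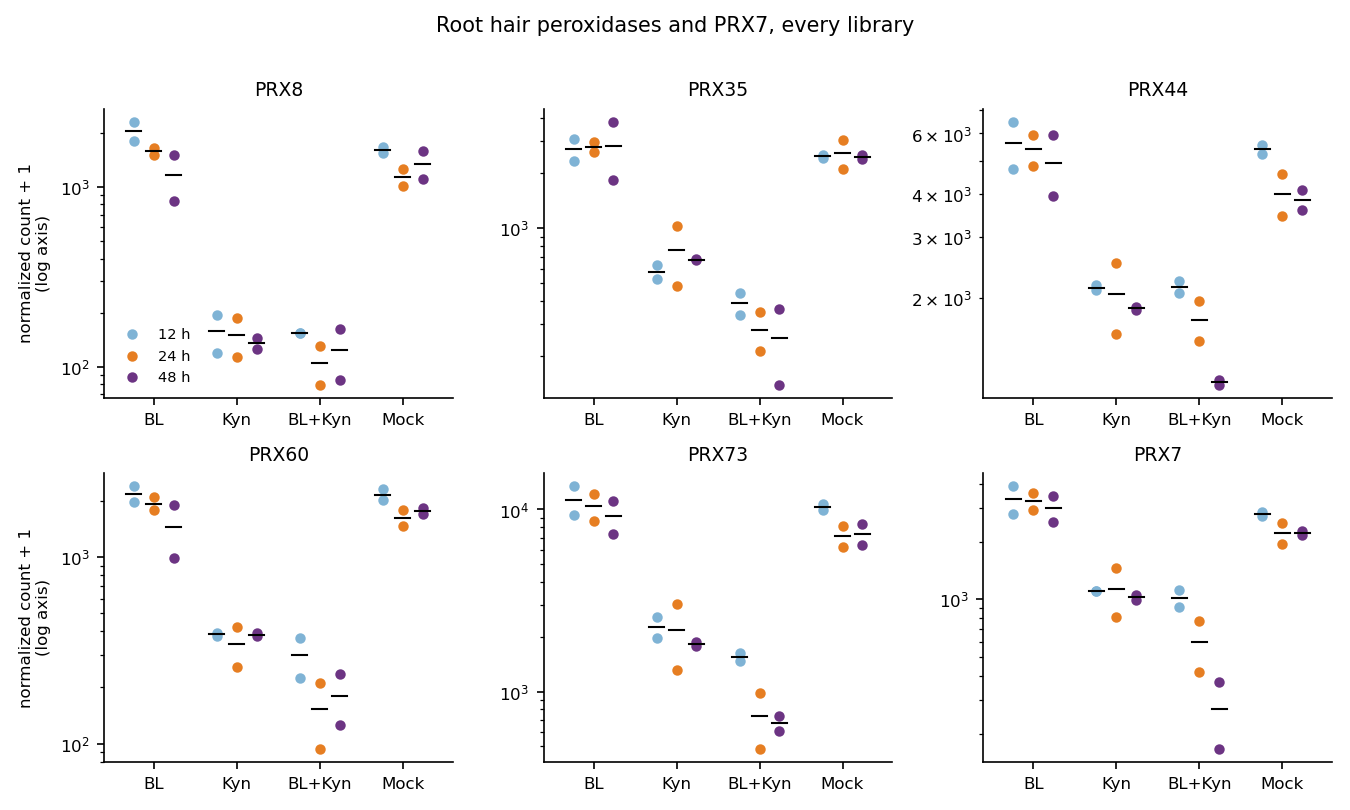
Normalized count + 1 (log axis) of 5 root hair peroxidases and PRX7 in every library, by treatment (BL, Kyn, BL+Kyn, mock) and time (colours); short lines are means of 2 libraries. All 12 Kyn and BL+Kyn points lie below all 6 mock points in each panel, and the BL points overlap mock.

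Set directly against Kyn, the BL+Kyn libraries were lower still for PRX35 (log2 -1.18, SE 0.23, adjusted p = 0.000783), PRX60 (-0.94, SE 0.21, adjusted p = 0.00224), PRX73 (-1.17, SE 0.19, adjusted p = 0.000267) and PRX7 (-1.03, SE 0.19, adjusted p = 0.000526). That comparison called 30.3% of all genes, 15.5% higher and 14.8% lower. PRX8 (-0.24, adjusted p = 0.373) and PRX44 (-0.31, adjusted p = 0.0652) were not called. Set against BL, all 5 root hair members and PRX7 were lower, with log2 changes from -3.65 (PRX8) to -1.70 (PRX44), where 27.7% of all genes were called, 14.3% higher and 13.4% lower.

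Other genes of root hairs moved with these peroxidases. Of 8 root hair marker genes, 7 were lower in Kyn and 7 in BL+Kyn, where 3.12% and 17.6% of all genes were lower. RSL4 was lower in both (log2 -1.06 and -1.29). RHD6, which acts before hairs form, was not called (0.28 and -0.21). The summed normalized count of the 8 was 30565 to 60289 in BL, 7660 to 13412 in Kyn and 3092 to 9870 in BL+Kyn, against 30180 to 50379 in mock, and no defining marker was at 0. In these whole root pieces, fewer root hair cells and less RNA per cell cannot be told apart.

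PRX1, the sixth root hair locus, was not tested: it had 11 reads in all, with 4, 2, 0 and 5 reads in BL, Kyn, BL+Kyn and mock. Its neighbour PRX2 (mean 4.89) had 0, 1.48 and 2.83 normalized counts in BL+Kyn, against 3.86, 6.98 and 11.4 in mock, and did not overlap. All 50-base stretches in the last 500 bases of the PRX2 transcript occur elsewhere (RefSeq, TAIR10.1), and 45.7% of those of PRX1, so reads of the pair may have been assigned to either gene or to none.

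The stress members rose in BL+Kyn by log2 0.52 to 4.50, with a list median of 2.31. The list median was 0.86 at 12 h, 2.58 at 24 h and 2.21 at 48 h, and 1.37 in the fit over 12 and 24 h alone. PRX62 (AT5G39580, chr5:15847078-15849108), known for root hair growth in the cold as well as for stress responses, was higher in all 3 treatments. It had 52.5, 79.9 and 199 in BL, 79.9, 99.7 and 313 in Kyn and 409, 444 and 547 in BL+Kyn, against 20.4, 37.0 and 42.4 in mock. None of the 3 treatments overlapped mock. The log2 change was 1.38 in BL (SE 0.21, adjusted p = 0.00119), 1.96 in Kyn (SE 0.21, adjusted p = 5.47e-06) and 3.78 in BL+Kyn (SE 0.21, adjusted p = 3.92e-10).

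PRX4 and PRX5 lie next to each other on chromosome 1, with 3322 bases between them. PRX4 (AT1G14540, chr1:4974067-4975705), linked to lignification, had 1808, 2829 and 3130 in BL, 2104, 2720 and 4568 in Kyn and 4212, 7663 and 9389 in BL+Kyn, against 1172, 1383 and 2236 in mock. Only BL+Kyn was clear of mock, and the changes were 0.85 in BL (SE 0.17, adjusted p = 0.0117), 0.94 in Kyn (SE 0.17, adjusted p = 0.00179) and 2.31 in BL+Kyn (SE 0.17, adjusted p = 1.08e-08). PRX5 (AT1G14550, chr1:4979028-4980324) had 18.3, 44.8 and 67.9 in BL, 33.5, 56.6 and 111 in Kyn and 148, 257 and 300.4 in BL+Kyn, against 7.62, 20.03 and 25.3 in mock. Kyn and BL+Kyn did not overlap mock, and the changes were 1.25 in BL (SE 0.31, adjusted p = 0.0403), 1.78 in Kyn (SE 0.31, adjusted p = 0.000981) and 3.79 in BL+Kyn (SE 0.31, adjusted p = 3.68e-08). Leaving out Mock 12 h replicate 2 took both BL calls past the threshold (adjusted p = 0.0555 for PRX4 and 0.149 for PRX5), and the PRX5 call in BL was lost in 15 of the 24 fits that left out 1 library.

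PRX53 (AT5G06720, chr5:2077420-2079005), a peroxidase of defence and wounding, had few reads outside BL+Kyn: 77 in BL, 106 in Kyn and 470 in BL+Kyn, against 26 in mock. Its normalized counts were 0, 10.5 and 31.2 in BL, 11.3, 15.1 and 25.7 in Kyn and 28.2, 69.2 and 212 in BL+Kyn, against 0, 3.59 and 5.29 in mock. Kyn and BL+Kyn lay above mock, at log2 2.57 (SE 0.50, adjusted p = 0.00276) and 4.50 (SE 0.50, adjusted p = 1.82e-06), and BL at 1.62 was not called (adjusted p = 0.125). With a mock mean of 2.94 it passed the limit of 5 through its treated libraries, as did PRX38.

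PRX34 (AT3G49120, chr3:18207651-18210132), a source of the oxidative burst in defence, was not called in either single treatment (0.38 in BL and 0.16 in Kyn). It had 1041, 1398 and 1834 in BL, 982, 1220 and 1518 in Kyn and 2409, 3122 and 6258 in BL+Kyn, against 848, 1078 and 1544 in mock. The BL+Kyn libraries lay above all others, and the change was 1.62 (SE 0.11, adjusted p = 3.07e-09). PRX71 (AT5G64120, chr5:25659306-25661002), known to restrict growth when the wall is disturbed, had 2823, 3054 and 3789 in BL, 1610, 3338 and 4653 in Kyn and 4721, 6432 and 11595 in BL+Kyn, against 1545, 1982 and 3943 in mock. It rose in BL+Kyn by 1.48 (SE 0.17, adjusted p = 2.35e-06), with no overlap with mock, and the changes in BL (0.44) and Kyn (0.39) were not called.

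PRX21 (AT2G37130), with a role in resistance to pathogens, had 4101, 4816 and 5253 in BL, 5070, 5514 and 6281 in Kyn and 6259, 7247 and 12947 in BL+Kyn, against 3561, 4795 and 6231 in mock. The BL+Kyn and mock ranges nearly met, and the change was 0.71 (SE 0.13, adjusted p = 0.000341). PRX37 (AT4G08770), a wall-bound peroxidase, had 358, 502 and 616 in BL, 629, 693 and 797 in Kyn and 389, 609 and 955 in BL+Kyn, against 278, 470 and 578 in mock. Here Kyn (0.64, SE 0.16, adjusted p = 0.0242) stood clear of mock and BL+Kyn (0.52, SE 0.16, adjusted p = 0.0191) overlapped it. Without Mock 48 h replicate 1 the BL+Kyn call was lost (log2 0.40, adjusted p = 0.0767), as it was without the first 12 h mock library (0.43) or the second BL+Kyn library of 24 h (0.41) or of 48 h (0.33). The Kyn call was lost in 7 of the 24 such fits.

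PRX52 (AT5G05340), known for lignin of stem fibres, varied widely between sister libraries. In BL its replicates 1 and 2 had 41.5 and 29.3 at 12 h, 1.62 and 211 at 24 h and 59.6 and 7.54 at 48 h. In Kyn they had 29.5 and 58.9, 16.2 and 5.35, and 18.8 and 14.6, and in BL+Kyn 29.6 and 8.97, 83.1 and 184, and 99.3 and 621, at the same times. In mock they had 15.4 and 16.5, 12.1 and 27.2, and 3.34 and 6.79. The BL+Kyn change was 2.72 (SE 0.77, adjusted p = 0.00995), and over 12 and 24 h alone it was 1.37 (adjusted p = 0.31). PRX33 and PRX58, the remaining stress loci, had 26 and 16 reads in all and were not tested.

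**Figure D3:**
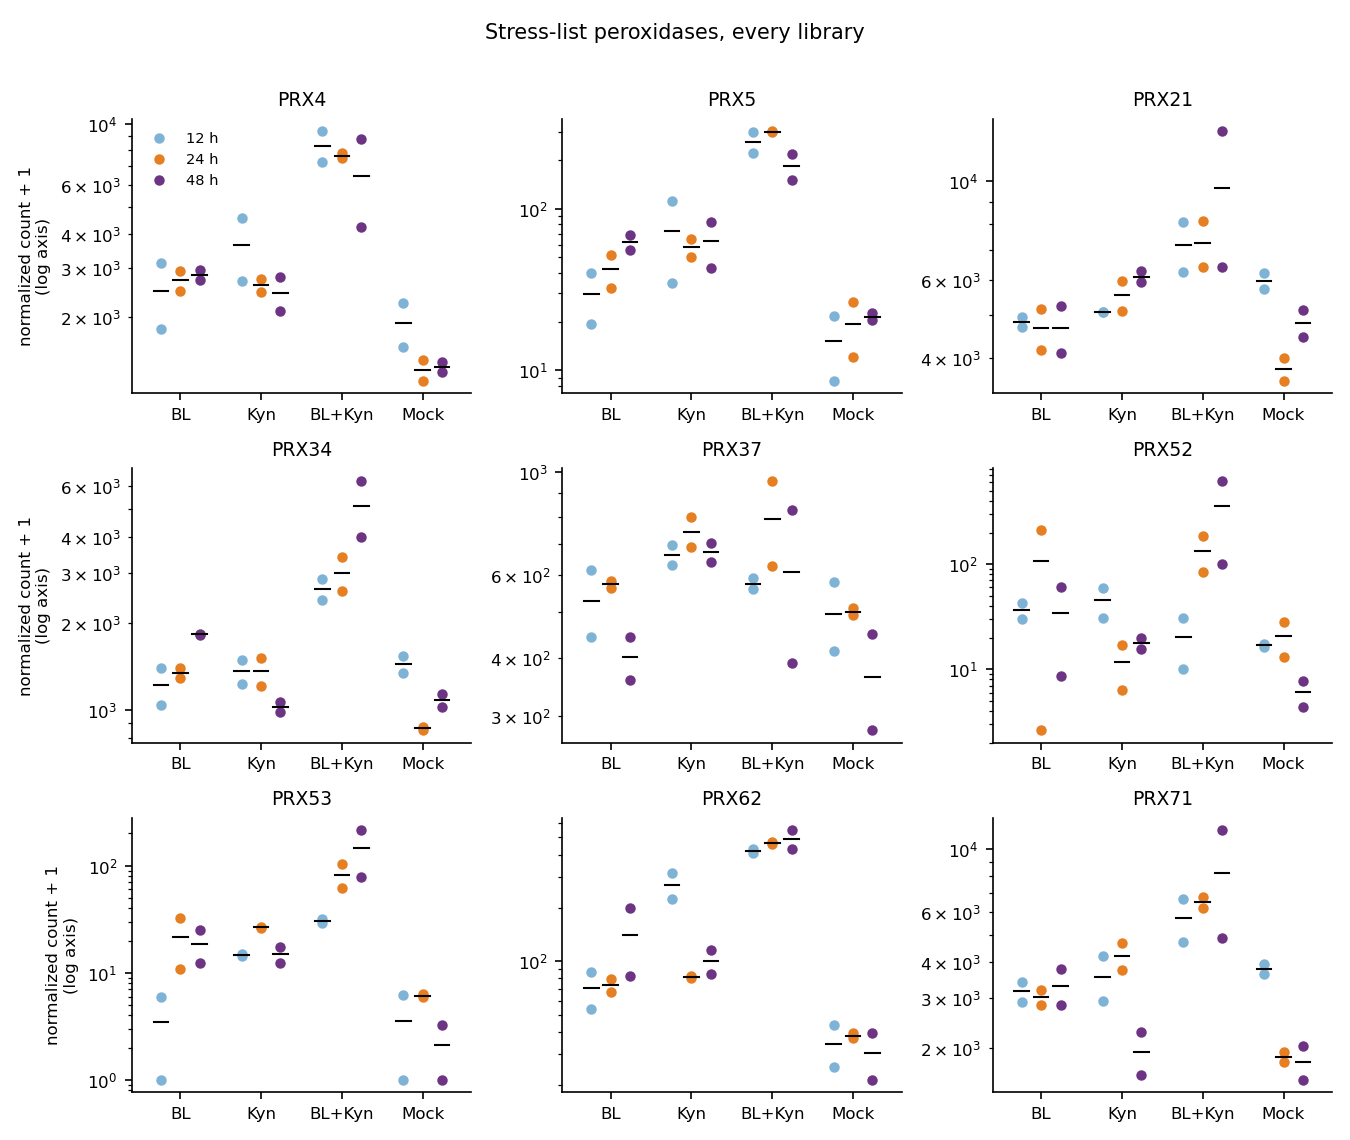
Normalized count + 1 (log axis) of the 9 tested stress-list peroxidases in every library, by treatment (BL, Kyn, BL+Kyn, mock) and time (colours); short lines are means of 2 libraries. BL+Kyn points lie above all mock points for PRX4, PRX5, PRX21, PRX34, PRX53, PRX62 and PRX71, and overlap them for PRX37 and PRX52.

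The Casparian strip and lignin list had a smaller median rise than the stress list. PRX4 and PRX52, also described above for lignin, were counted on the stress list. In BL+Kyn 6 of 9 were higher and 1 lower than in mock, with a median of 0.54, where 18.7% of all genes were higher and 17.6% lower. In Kyn 2 were higher, where 1.78% of all genes were higher. PRX47 (AT4G33420), expressed in differentiating vessels, had 337, 411 and 568 in Kyn and 436, 810 and 1464 in BL+Kyn, against 164, 197 and 243 in mock. Both groups lay above mock, and the changes were 1.11 (SE 0.14, adjusted p = 2.66e-05) and 1.99 (SE 0.14, adjusted p = 3.93e-09). PRX72 (AT5G66390), a lignin peroxidase, had 2783, 3174 and 4523 in Kyn and 4362, 5054 and 5968 in BL+Kyn, against 2096, 2358 and 3125 in mock. It rose by 0.39 in Kyn (SE 0.09, adjusted p = 0.00763), where the ranges overlapped, and by 1.05 in BL+Kyn (SE 0.09, adjusted p = 4.48e-08), where they did not.

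PRX64 (AT5G42180), which builds Casparian strip lignin, had 644, 1050 and 1146 in BL+Kyn, against 551, 710 and 792 in mock, with 5 of 6 libraries above the mock mean of their time (0.54, SE 0.12, adjusted p = 0.00138). PRX66 (AT5G51890), of vessel lignin, had 278, 396 and 574, against 197, 254 and 373 in mock (0.62, SE 0.12, adjusted p = 0.00061). PRX9 (AT1G44970) had 291, 435 and 503, against 224, 281 and 397 in mock (0.50, SE 0.14, adjusted p = 0.00769). These ranges overlapped, as did those of PRX3, with 13168, 15613 and 17609 in BL+Kyn against 11424, 11988 and 13290 in mock (0.37, SE 0.06, adjusted p = 0.000133). PRX17 (AT2G22420) was the lower member, with 44.9, 50.0 and 78.8 in BL+Kyn against 66.8, 79.2 and 96.9 in mock (-0.57, SE 0.16, adjusted p = 0.00781). PRX25 (0.57, adjusted p = 0.102) and PRX39 (-0.14, adjusted p = 0.272) were not called in the fit averaged over the times. At 48 h alone PRX25 was called higher, with means of 236 in BL+Kyn and 62.4 in mock. That call was lost without the first mock library or the second BL+Kyn library of 48 h.

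Markers of the cells concerned were measured beside this list. In BL+Kyn against mock, 36.3% of all genes were called, 18.7% higher and 17.6% lower. Of 7 endodermis genes, 6 were higher in BL+Kyn than in mock, among them ESB1 (0.62) and MYB36 (0.81), and the summed count of the 7 was 16437 to 29054 in BL+Kyn against 12702 to 18887 in mock. Of 6 xylem genes, 2 (33.3%) were higher, XCP1 (0.61) and XCP2 (0.44), and the list median was 0.01. The summed count of the 6 was 1960 to 3546 in BL+Kyn against 1380 to 2609 in mock. In Kyn, where the vessel peroxidase PRX47 rose, 4 of the 6 xylem genes were lower than in mock (list median -0.60). That comparison called 4.9% of all genes, 3.12% lower. The xylem sums were 1240 to 2125 in Kyn against 1380 to 2609 in mock. Of 4 meristem genes, 3 were lower in BL+Kyn than in mock, with sums of 96.1 to 211 in BL+Kyn against 274 to 362 in mock. The part of these marker shifts in the peroxidase changes was not tested.

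Among the 27 other tested members, 17 were called higher and 3 lower in BL+Kyn, with a median of 0.60. Of all genes, 18.7% were higher and 17.6% lower there. PRX38 (AT4G08780) had 6.41, 29.4 and 118 in BL+Kyn, against 0, 1.56 and 3.71 in mock, a fitted change of 3.88 (SE 0.57, adjusted p = 4.05e-05). It rests on 255 reads in BL+Kyn and 14 in mock, and it shares 11.5% of its 3′ stretches with other loci, as does its neighbour PRX37. PRX49 (AT4G36430) had 126, 415 and 1487 in BL+Kyn, against 20.4, 45.7 and 72.0 in mock (3.20, SE 0.41, adjusted p = 1.07e-05). Both were clear of mock.

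PRX12 (AT1G71695) was higher in Kyn and in BL+Kyn, and not called between them. It had 615, 917 and 1020 in Kyn and 558, 1130 and 1339 in BL+Kyn, against 122, 146 and 208 in mock. The change was 2.47 in Kyn (SE 0.14, adjusted p = 3.93e-09) and 2.75 in BL+Kyn (SE 0.14, adjusted p = 1.69e-10), and BL+Kyn against Kyn was 0.29 (SE 0.14, adjusted p = 0.136). PRX15 (AT2G18150) had 29.5, 51.4 and 148 in BL+Kyn, against 2.78, 9.62 and 22.3 in mock (2.60, SE 0.42, adjusted p = 0.000113). PRX54 (AT5G06730), which follows PRX53 on chromosome 5 after 949 bases, had 54.0, 59.3 and 74.8 in BL and 75.6, 101 and 141 in BL+Kyn, against 21.5, 33.1 and 47.0 in mock. Both groups lay above mock, with changes of 0.91 in BL (SE 0.15, adjusted p = 0.0027) and 1.61 in BL+Kyn (SE 0.15, adjusted p = 2.96e-07).

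PRX27 (AT3G01190), whose promoter stretch with the root hair element is shown above, rose where PRX60 and PRX73 fell. It had 7844, 9951 and 11948 in Kyn and 9512, 13420 and 18088 in BL+Kyn, against 5356, 5952 and 6558 in mock, with no overlap in either case (0.73 in Kyn, SE 0.14, adjusted p = 0.003, and 1.16 in BL+Kyn, SE 0.14, adjusted p = 6.3e-06). PRX55 (AT5G14130), with an equal BL+Kyn change of 1.16 (SE 0.15, adjusted p = 9.65e-06), had 108, 243 and 375 against 64.3, 98.0 and 136 in mock, which overlapped. Besides PRX7, the falls were PRX19 (AT2G34060), with 59.4, 82.3 and 87.1 in BL+Kyn against 92.8, 123 and 154 in mock (-0.66, SE 0.14, adjusted p = 0.000926), and PRX63 (AT5G40150), with 46.8, 66.2 and 98.7 against 77.5, 102 and 110 in mock (-0.57, SE 0.14, adjusted p = 0.00431). PRX19 was clear of mock, and PRX63 was not. The other 10 members called higher rose by 0.23 (PRX42) to 1.11 (PRX50).

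Of the 5 BL calls, PRX49 (1.64, SE 0.41, adjusted p = 0.0466) had 326 and 342 in BL 24 h replicate 2 and BL 48 h replicate 1, and 55.7 to 110 in the other 4 BL libraries. Its call was lost in 18 of the 24 fits that left out 1 library, with adjusted p up to 0.179, and also with no filter (0.103) and with a pseudocount of 5 (0.0548). These 2 BL libraries were also the highest of BL for PRX52. The BL count was 2 without the second 12 h mock library and 3 without any 1 of 10 others: the second 24 h and both 48 h mock libraries, the first 12 h, second 24 h and first 48 h BL libraries, and all 4 BL+Kyn libraries of 12 and 24 h. It was 10 without either 48 h library of BL+Kyn. Further Kyn calls were PRX11 (1.13, adjusted p = 0.0221), PRX38 (2.05, adjusted p = 0.042), which were lost in 6 and 9 of the 24 such fits, PRX49 (1.85, adjusted p = 0.0092) and PRX55 (0.85, adjusted p = 0.0012). In all, 4 members were higher than mock in each of BL, Kyn and BL+Kyn: PRX4, PRX5, PRX49 and PRX62, where 0.285% of all genes were. The BL calls of PRX5 and PRX49 among them were lost in 15 and 18 of the 24 fits that left out 1 library. The remaining 9 tested members, PRX10, PRX23, PRX25, PRX31, PRX39, PRX43, PRX51, PRX57 and PRX70, were called in none of the 3 averaged over the times. At 48 h alone, PRX10, PRX23 and PRX25 were called higher in BL+Kyn than in mock, and PRX57 lower. These calls were lost in 18 (PRX10), 2 (PRX23), 2 (PRX25) and 3 (PRX57) of the 24 fits that left out 1 library. PRX51 was called lower in BL+Kyn than in BL and PRX70 higher than in Kyn, lost in 19 and 11 of these fits.

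**Figure D4:**
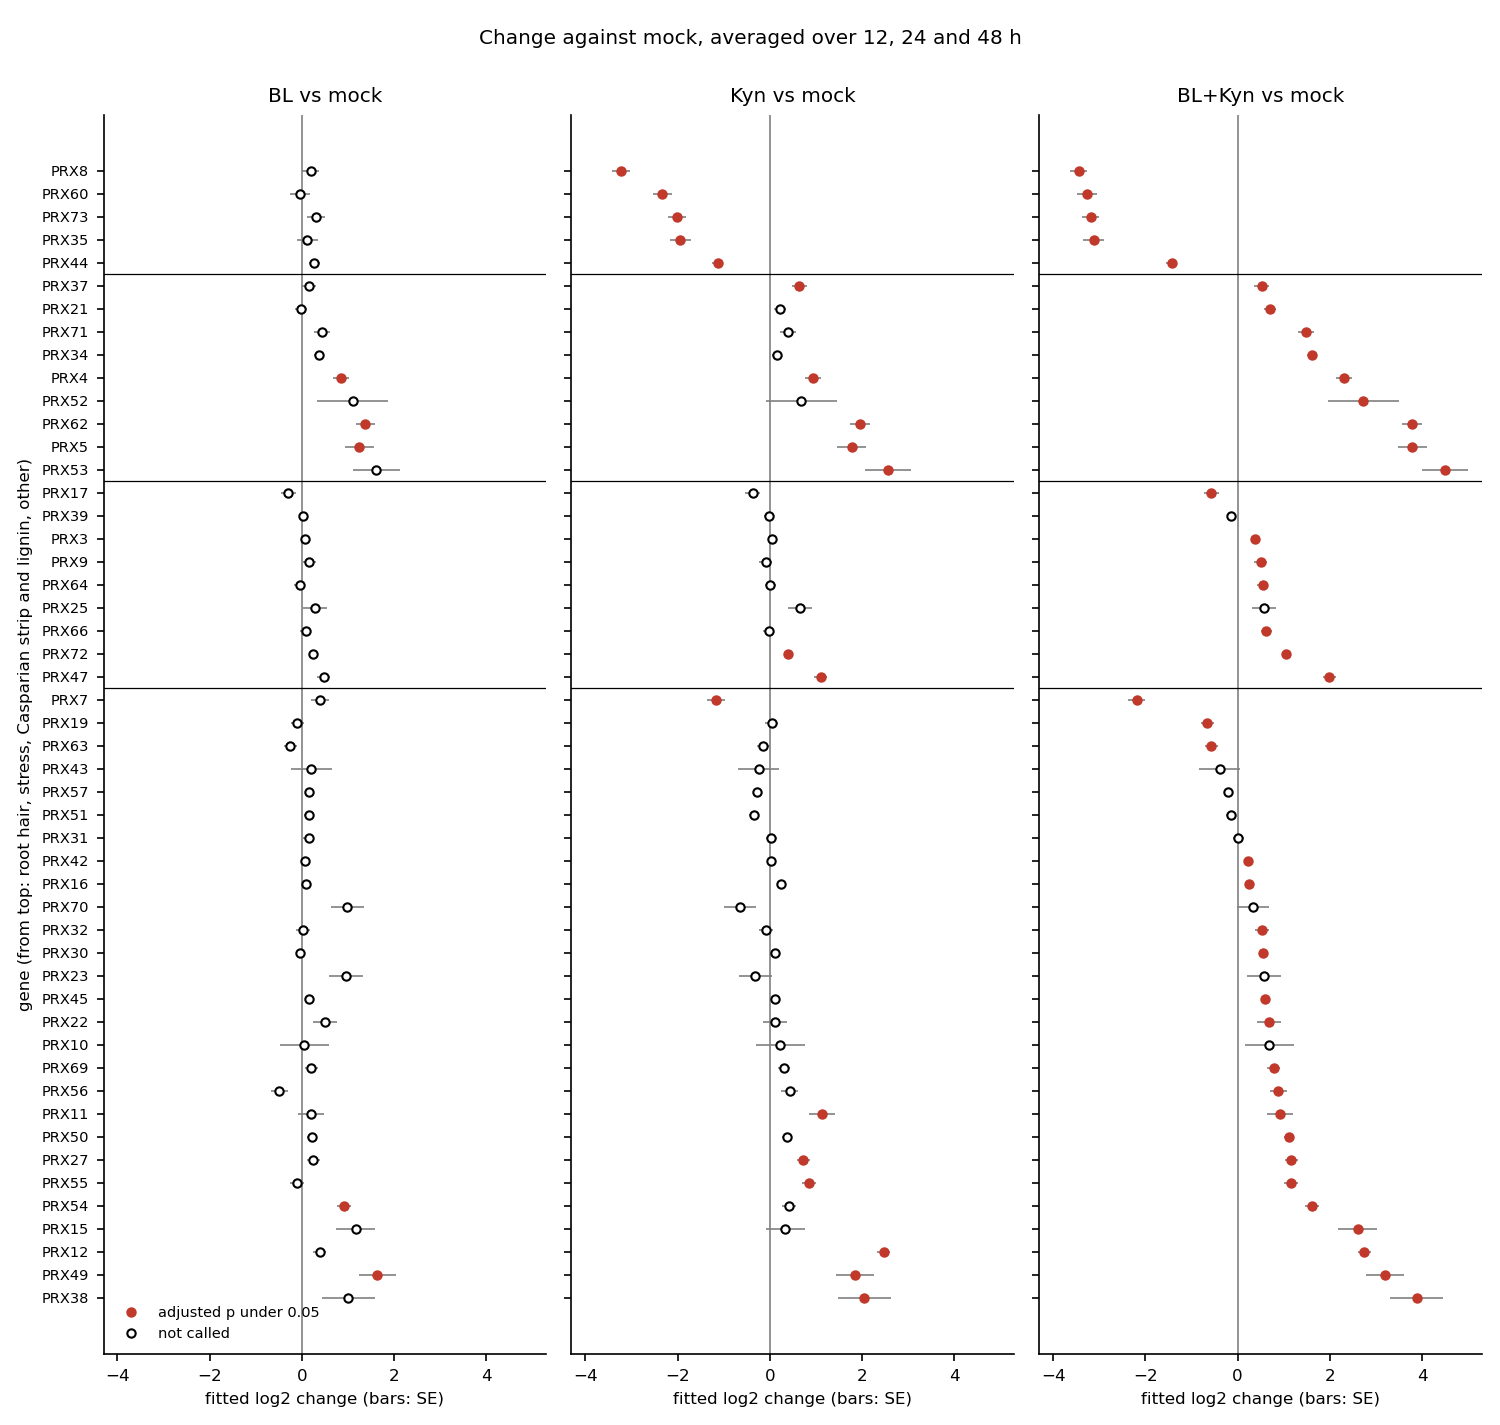
Fitted log2 change against mock (x axis, bars are SE) of the 50 tested peroxidases in BL, Kyn and BL+Kyn, averaged over 12, 24 and 48 h; filled points have a limma adjusted p under 0.05. Called points number 5 in BL, 19 in Kyn and 41 in BL+Kyn, and the 5 root hair members at the top lie left of 0 in Kyn and BL+Kyn.

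The interaction set the BL+Kyn change against the sum of both single changes. It was called for 6 peroxidases, 3 higher and 3 lower, where 3.98% of all genes were called, 1.66% higher and 2.32% lower. BL+Kyn exceeded the sum for PRX34 (1.07, SE 0.15, adjusted p = 0.00316), PRX30 (0.47, SE 0.11, adjusted p = 0.0285) and PRX56 (0.93, SE 0.26, adjusted p = 0.0488). It lay below the sum for PRX73 (-1.49, SE 0.27, adjusted p = 0.0109), PRX7 (-1.43, SE 0.26, adjusted p = 0.0109) and PRX35 (-1.30, SE 0.32, adjusted p = 0.0333). PRX56 had 360 to 786 in BL, 685 to 1693 in Kyn and 892 to 1874 in BL+Kyn, against 605 to 832 in mock, so its BL libraries reached lowest. PRX30 had 4782 to 6212 in BL, 5676 to 6818 in Kyn and 6378 to 10933 in BL+Kyn, against 5340 to 6185 in mock. Single libraries changed this count: it was 3 without any 1 of 7 libraries (the first 12 h, second 24 h and first 48 h mock libraries, the second 12 h and first 24 h BL libraries, and the second 12 h library of Kyn or of BL+Kyn) and 19 without the second 48 h library of BL+Kyn. The call of PRX30 was lost in 10, that of PRX35 in 16 and that of PRX56 in 20 of the 24 such fits.

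Taken time by time, the root hair members were low from the first harvest, and more members were called higher at the later harvests. At 12 h, 13 peroxidases were higher and 6 lower than mock, where 5.02% of all genes were called, 2.55% higher and 2.47% lower. At 24 h these were 25 and 8 (18.2% of all genes called, 9.63% higher and 8.61% lower), and at 48 h 27 and 8 (23.4% called, 12.2% and 11.2%). In all, 19 were called at 12 h, and 11 without the second 12 h library of mock or of BL+Kyn. At 24 h 33 were called, and 19 without the second 24 h library of BL+Kyn. The PRX7 call at 12 h was lost without any 1 of the 4 mock and BL+Kyn libraries of that time. PRX7 and the 5 root hair members were lower at each of the 3 times, and PRX4, PRX5, PRX12, PRX27, PRX34, PRX47, PRX50, PRX53, PRX62 and PRX72 were higher at each, where 1.47% of all genes were lower and 1.23% higher at each. A further 24 members were called at 24 or 48 h and not at 12 h, as were 25.6% of all genes.

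The BL+Kyn response itself differed between the 3 times for 3 members, in a test that called 1.16% of all genes, and PRX34 had the largest F of the 3. Its 2 libraries had 2409 and 2854 in BL+Kyn at 12 h, 2579 and 3390 at 24 h and 6258 and 3997 at 48 h, against 1544 and 1346, 848 and 874, and 1023 and 1133 in mock. The log2 change was 0.86, 1.78 and 2.21 at the 3 times (moderated F = 13.4, limma adjusted p = 0.0313). PRX11 had 24.8 and 12.8 in BL+Kyn at 12 h, 160 and 203 at 24 h and 361 and 628 at 48 h, against 30.9 and 50.8, 38.9 and 56.9, and 94.7 and 162 in mock (F = 12.6, adjusted p = 0.0383). PRX42 was near mock at 12 h (log2 -0.11) and 24 h (0.14) and higher at 48 h (0.65), with 31008 and 30265 in BL+Kyn against 18075 and 20999 in mock (F = 12.3, adjusted p = 0.0406). The call was lost in 7 of the 24 fits that left out 1 library for PRX34, in 10 for PRX11 and in 15 for PRX42. The count was 0 without either 12 h or 48 h mock library or the second 12 h BL+Kyn library, 1 without the first 24 h mock, first 12 h BL+Kyn or second 24 h BL+Kyn library, and 7 or 9 without the first or second 48 h BL+Kyn library. At 48 h the BL+Kyn replicates themselves differed for some members: PRX21 had 12947 and 6399, PRX71 11595 and 4878, and PRX53 77.7 and 212.

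**Figure D5:**
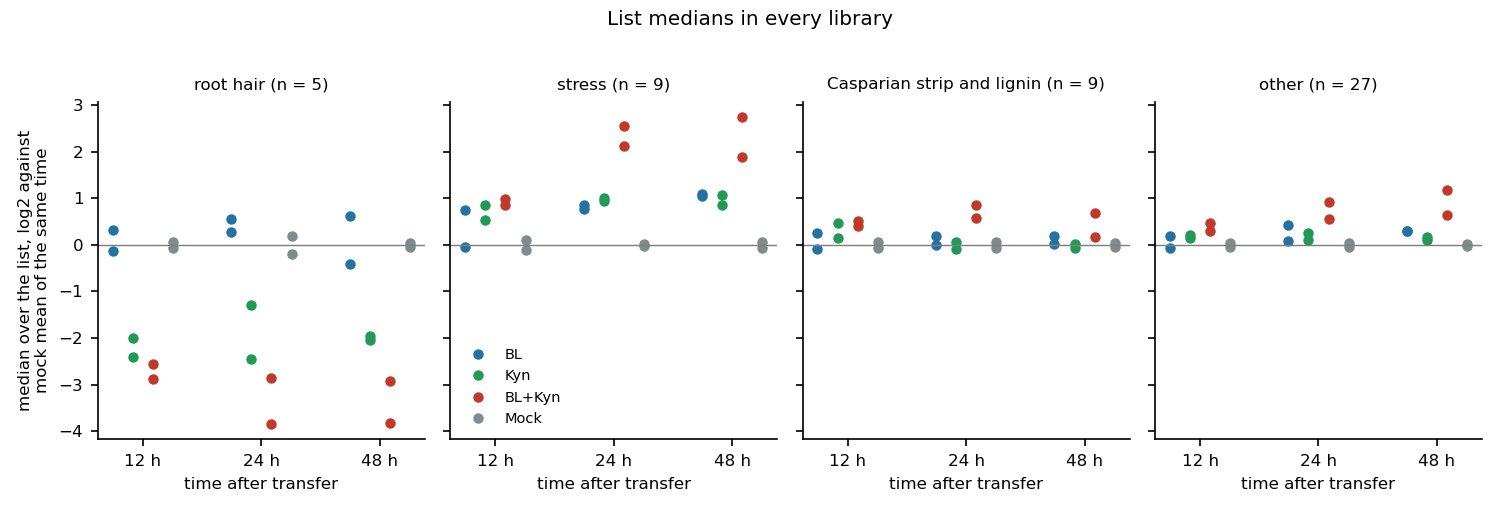
Median over each list of log2(normalized count + 1) minus the mock mean of the same time (y axis), for every library at 12, 24 and 48 h; colours are treatments. The root hair medians lie below -1 in every Kyn and BL+Kyn library, and the stress medians of BL+Kyn lie between 0.85 and 2.74. At 12 h the stress medians were 0.85 and 0.98 in BL+Kyn, 0.85 and 0.53 in Kyn and 0.75 and -0.05 in BL.

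Mock roots were also compared over time. Between mock at 48 h and mock at 12 h, limma called 0 of 50 peroxidases, where 0.369% of all genes were called, 0.153% higher and 0.216% lower, with 11 peroxidases at an unadjusted p under 0.05. edgeR called 0 and DESeq2 1 on the recovered reads, and limma 3 without either 48 h library of BL+Kyn. With 2 libraries at each time, some members still had different means: PRX71 had 1787 at 48 h against 3795 at 12 h (log2 -1.10, SE 0.29, adjusted p = 0.132), and PRX11 had 128 against 40.8 (1.62, SE 0.49, adjusted p = 0.206).

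As a share of all normalized counts, the 60 loci made up 1.08% in BL (SD 0.063), 0.954% in Kyn (SD 0.061) and 1.25% in BL+Kyn (SD 0.156), against 0.973% in mock (SD 0.09, n = 6 each). The root hair list made up 0.182% in BL, 0.045% in Kyn and 0.027% in BL+Kyn, against 0.154% in mock. The stress list made up 0.106% in BL, 0.118% in Kyn and 0.229% in BL+Kyn (SD 0.057), against 0.088% in mock (SD 0.021). These are means, and BL+Kyn 48 h replicate 1 was the highest library, at 1.564% for the 60 loci and 0.341% for the stress list. The BL+Kyn medians were 1.197% and 0.211%, against 0.947% and 0.079% in mock.

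Some members that are neighbours in the genome were called together and others were not. Of the 60 loci, 13 pairs lay next to each other in the family within 10000 bases. PRX4 and PRX5, PRX37 and PRX38, and PRX53 and PRX54 were higher together in BL+Kyn. PRX50 (1.11, SE 0.11, adjusted p = 6.91e-07) was higher while PRX51 (-0.14, adjusted p = 0.345), after 1534 bases, was not called. PRX69 (0.78) and PRX71 (1.48) were higher, and PRX70 between them (0.33, adjusted p = 0.502) was not called. PRX44 fell, and its neighbour PRX43 (-0.39, adjusted p = 0.526) was not called.

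Among genes that make or remove hydrogen peroxide, 5 of 11 (45.5%) were higher and 0 lower in BL+Kyn than in mock. Of all tested genes, 18.7% were higher and 17.6% lower in that comparison. The summed counts of the 11 overlapped (27266 to 38287 in BL+Kyn, against 30067 to 35225 in mock). Those called were the NADPH oxidases RBOHD (0.88) and RBOHF (0.59), the catalases CAT1 (0.94) and CAT2 (0.45), and UPB1 (0.50), a transcription factor known to repress peroxidase genes including PRX39 and PRX57. PRX39 (-0.14) and PRX57 (-0.21, adjusted p = 0.092) were not called over the 3 times. At 48 h alone PRX57 was called lower, with means of 8872 in BL+Kyn and 12663 in mock. That call was lost in 3 of the 24 fits that left out 1 library. PRX57 was also called lower in BL+Kyn than in BL, with means of 11645 and 14761 over all times. RBOHC, the NADPH oxidase of root hairs, was not called in Kyn (-0.33) or BL+Kyn (-0.30). Of 16 monolignol and laccase genes, which make and couple lignin precursors, 7 (43.8%) were higher and 0 lower, beside the same shares of all genes. The 7 were PAL1 (0.26), PAL2 (0.50), C4H (0.35), CCR1 (0.20), COMT1 (0.59), CAD5 (0.54) and LAC11 (0.71). In Kyn, 1 of these 27 genes was higher, CAT1 (0.75), and 1 lower, 4CL1 (-0.37), and 0 were called in BL.

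The authors' deposited table, which compares each treatment with mock at each time, gives the single treatments by time. In BL it holds 0 members with an adjusted p under 0.05 at 12 h, 1 at 24 h (PRX4, log2 fold change 0.97) and 6 at 48 h, all higher, among them PRX62 (1.68), PRX23 (1.44) and PRX54 (1.08), where it called 0.628%, 0.798% and 0.786% of all genes. In Kyn that table holds 5 higher and 6 lower members at 12 h, 6 and 5 at 24 h and 8 and 5 at 48 h, where it called 2.17%, 1.51% and 1.68% of all genes. PRX8, PRX35, PRX44, PRX60 and PRX73 are the 5 lower members at 24 and 48 h in the authors' deposited table, and PRX7 is the additional one at 12 h.

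The 10 untested loci included 3 with no read in any library, PRX6, PRX36 and PRX68. PRX41 and PRX67 had 2 and 3 reads in all. PRX59 (mean 4.29) had 1.88, 3.54 and 19.0 normalized counts in BL, 0 to 9.37 in Kyn and 0, 4.62 and 16.6 in BL+Kyn, against 0, 0 and 2.64 in mock, and its ranges overlapped. All 6 BL libraries of PRX59 lay above the mock mean of their time, with 42 reads in BL and 9 in mock, and no test was run on the 10 loci.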

How the data were processed

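The submitters' processing notes name DESeq2 1.18.1, HTSeq 0.6.1, TopHat2 2.1.0, cutadapt 1.10, Trim Galore, FastQC 0.11.5 and the build TAIR10. Strand and any collapse of molecular barcodes are not given in the sources used here, so overlapping genes cannot be told apart. The authors deposited normalized counts per library, a linear signal in which each library's values are whole multiples of 1 unit, with totals of 11679031 to 12344333. Dividing by the smallest unit gave whole reads for 100% of values (within 0.1). The authors also deposited log2 fold changes and an adjusted p-value for each treatment against mock at each time.

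The signal was used with a pseudocount of 1 and a minimum mean of 5 in a limma-trend model of 12 group means with 12 residual degrees of freedom. A fold on this scale understates the change of low genes. P-values were adjusted by Benjamini-Hochberg over all 18948 genes, with a threshold of 0.05. The members, lists and rule for named genes were chosen with earlier results of these data known. By that rule, library values are given for tested root hair and stress members, for called Casparian strip and lignin members, and for the 6 largest rises and falls among other called members. Alternatives were edgeR 4.0.16 with TMM and DESeq2 1.42.0 on recovered reads, pseudocounts of 0.5 and 5, no filter or a mean of 20, a replicate block, 12 and 24 h only, and libraries left out. The tests were also run on simulated reads with the same spread setting for every gene and changes in BL+Kyn only. That simulation does not cover sister libraries that differ as widely as those of PRX52. R 4.3.3, limma 3.58.1, Python 3.11.15, NumPy 2.4.6, pandas 2.3.3 and matplotlib 3.10.9 were used. Promoters and 3′ stretches came from TAIR10.1; for 23476 of 23476 loci matched, the files' coordinates overlapped its genes on the same chromosome.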

Additional observations from a re-analysis of the deposited data

Results flagged for a closer look

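For 6 peroxidases the BL+Kyn change differed from the sum of the BL and Kyn changes in limma's interaction test (adjusted p over all genes). PRX34 (log2 1.07, adjusted p = 0.00316), PRX56 (0.93, adjusted p = 0.0488) and PRX30 (0.47, adjusted p = 0.0285) lay above the sum. PRX73 (-1.49), PRX7 (-1.43) and PRX35 (-1.30) lay below it, with adjusted p of 0.0109, 0.0109 and 0.0333. Over 12 and 24 h alone, PRX73 and PRX7 had adjusted p of 0.0858 and 0.126.

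For 3 peroxidases the BL+Kyn response differed between 12, 24 and 48 h in limma's moderated F test: PRX34 (F = 13.4, adjusted p = 0.0313), PRX11 (F = 12.6, adjusted p = 0.0383) and PRX42 (F = 12.3, adjusted p = 0.0406).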

How the results depend on the processing

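Of the BL+Kyn calls against mock, 33 of 41 peroxidases were called under every alternative, and against BL 28 of 34. The 33 included the 5 root hair members, PRX7 and every stress member except PRX37 and PRX52. For Kyn these were 15 of 19, for BL 1 of 5 (PRX62), and for the interaction 1 of 6 (PRX34). In BL, 5 members were called, against 10 by DESeq2, 3 with no filter and 1 over 12 and 24 h only. For the interaction the 6 calls became 14 by DESeq2, 3 with no filter, 3 without BL 12 h replicate 2 and Kyn 12 h replicate 2, and 2 over 12 and 24 h only. For mock at 48 h against 12 h the count was 0, and 1 by DESeq2. The 3 calls of the test over time became 0 with no filter, and DESeq2 was not run for it. The single reversal was PRX42 in BL+Kyn against Kyn, at 0.19, and -0.02 over 12 and 24 h only. The stress median in BL+Kyn was 2.31, and 1.37 over 12 and 24 h only. The cause of these shifts was not tested.

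With each library left out in turn, the number called ran from 2 to 10 in BL, 16 to 22 in Kyn, 38 to 42 in BL+Kyn, 31 to 37 in BL+Kyn against BL, 25 to 34 in BL+Kyn against Kyn and 3 to 19 in the interaction. At 12, 24 and 48 h, BL+Kyn against mock gave 11 to 22, 19 to 34 and 25 to 35, mock over time 0 to 3 and the test over time 0 to 9. The BL count was 2 without Mock 12 h replicate 2 and 10 without BL+Kyn 48 h replicate 1 or 2. Differences between replicates 1 and 2, taken over all tested genes, had a median correlation of 0.028 between groups. Of 66 pairs of groups, 9 had a correlation over 0.1, and the range was -0.121 to 0.53. Pairing of single genes was not tested, and PRX22 was higher in replicate 2 than in replicate 1 in every group. With the replicate block, 6 were called in BL, 20 in Kyn, 41 in BL+Kyn, 37 against BL, 33 against Kyn, 9 in the interaction, 19, 34 and 37 at 12, 24 and 48 h, 0 in mock over time and 4 over time. Members with few reads, such as PRX38 and PRX53, limit the precision of their changes.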
